A study of Mus musculus with 4 samples.

Results

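The amino acid catabolic enzymes described here are 9 genes of hepatocytes, Tat, Tdo2, Hpd, Hgd, Hal, Uroc1, Sds, Prodh and Aass. They were chosen by name, as enzymes of aromatic amino acid, histidine, serine, proline and lysine breakdown, and were found under those names on the array. They are 9 of 30026 genes, read by 11 of 39429 probes, since Hal and Sds have a second probe. Liver RNA of C57BL/6N mice was hybridised to 4 one-colour arrays on 1 slide, 1 array per group, each with RNA pooled from 5 livers. The groups were Pnpla7-/- (KO) at 6 weeks of age, Pnpla7+/+ (wild type, WT) at 6 weeks, Pnpla7-/- at 3 weeks and Pnpla7+/+ at 3 weeks. PNPLA7 is a lysophospholipase that turns lysophosphatidylcholine into glycerophosphocholine, a source of choline. The sources used here give neither sex, feeding state and time of day at collection nor the deleted stretch of Pnpla7.

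The liver breaks down most amino acids that are not used for protein, sending their nitrogen to urea and their carbon to glucose, ketone bodies and the citric acid cycle. Many of these enzymes are made almost only in hepatocytes, and several, with Tat, Tdo2 and Sds as textbook cases, are known to be induced by glucocorticoids or glucagon and to appear around birth and weaning. Tat starts tyrosine breakdown by removing the amino group, Hpd makes homogentisate and Hgd opens its ring. Tdo2 opens the indole ring of tryptophan and so starts the kynurenine route. Hal removes ammonia from histidine to give urocanate, which Uroc1 hydrates. Sds turns serine into pyruvate, Prodh starts proline oxidation in mitochondria, and Aass carries out the opening steps of lysine breakdown through saccharopine.

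A level below is the background-subtracted spot signal divided by the 75th percentile of all non-control spots on the same array, so a level of 1 is that percentile. Levels of different probes depend on the probes and are not set against each other. With 1 array per group no difference between groups has a replicate check, so genes were counted at a ratio of at least 2-fold, beside the share of all genes counted in the same way. The only error at hand is the spread between repeated spots of one probe on an array, which leaves out all differences between pools and animals. It gave a log2 ratio an SD of 0.0996 for KO over WT at 6 weeks and 0.0854 at 3 weeks, from the median over 125 to 128 bright probes per array. Every enzyme probe has 1 spot, so this spot SD comes from other probes and was not measured on the enzymes. All 4 arrays lay on 1 slide with 1 group each, so position on the slide and group cannot be told apart. Between 66.7% and 71.4% of the 43020 non-control spots were well above background on each array, and every probe of the 9 enzymes was so on all 4 arrays. The 11 of 12 hepatocyte markers found on the array were also well above background on all 4. Pnpla7 itself, on its 1 probe, had levels of 4.42 on the KO array and 9.65 on the WT array at 6 weeks (log2 ratio -1.13). At 3 weeks it had 6.70 on the KO array and 7.54 on the WT array, a log2 ratio of -0.17, so the genotype is taken from the labels throughout, since this probe leaves it unsettled.

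Promoters of 8 of the 9 genes were matched by symbol in a table of RefSeq promoters (build GRCm38.p6), which runs from 250 bases before to 50 after the start site. Sds was not matched. The 250 bases before the start site are printed 5′ to 3′ for 5 genes: Prodh, Aass and Tat, which were among the 4 with the highest KO/WT ratio at 6 weeks, Hal, which had the highest ratio of 6 over 3 weeks, and Hgd, whose level varied least. Capitals mark matches, on either strand, to 3 short motifs, TTGCNNAA (a core of the C/EBP site), TATAAA (the TATA box) and TGACG (the core of the cAMP response element). The Prodh stretch lies at chr16:18089191-18089440, the Aass stretch at chr6:23132987-23133236 and both on the minus strand, while those of Tat (chr8:109990186-109990435), Hal (chr10:93488518-93488767) and Hgd (chr16:37579903-37580152) lie on the plus strand.
Prodh: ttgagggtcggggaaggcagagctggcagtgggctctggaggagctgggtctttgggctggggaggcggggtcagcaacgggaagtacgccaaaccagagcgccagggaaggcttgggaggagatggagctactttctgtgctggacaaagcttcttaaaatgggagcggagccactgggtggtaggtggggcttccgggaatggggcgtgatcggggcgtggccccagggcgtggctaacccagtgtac
Aass: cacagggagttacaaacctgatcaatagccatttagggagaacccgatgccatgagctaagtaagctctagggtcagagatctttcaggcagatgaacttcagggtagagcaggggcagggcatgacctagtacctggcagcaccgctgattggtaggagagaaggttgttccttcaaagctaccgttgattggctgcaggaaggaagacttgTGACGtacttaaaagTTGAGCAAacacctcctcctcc
Tat: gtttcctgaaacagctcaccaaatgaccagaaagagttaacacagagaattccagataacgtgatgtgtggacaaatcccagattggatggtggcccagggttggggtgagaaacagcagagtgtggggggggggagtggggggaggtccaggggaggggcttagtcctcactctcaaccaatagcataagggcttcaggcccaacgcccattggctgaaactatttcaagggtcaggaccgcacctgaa
Hal: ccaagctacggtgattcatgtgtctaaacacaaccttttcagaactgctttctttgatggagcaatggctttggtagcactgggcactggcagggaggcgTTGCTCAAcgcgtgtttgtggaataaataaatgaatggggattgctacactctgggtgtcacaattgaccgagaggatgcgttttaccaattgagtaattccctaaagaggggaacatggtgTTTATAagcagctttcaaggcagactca
Hgd: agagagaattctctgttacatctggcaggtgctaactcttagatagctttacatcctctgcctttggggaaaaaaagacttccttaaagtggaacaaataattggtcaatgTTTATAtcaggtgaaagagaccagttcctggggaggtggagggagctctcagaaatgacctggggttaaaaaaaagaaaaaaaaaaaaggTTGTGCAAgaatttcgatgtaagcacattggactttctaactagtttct

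Over all 300 bases on both strands, TTGCNNAA was in 3 of the 8 promoters (Aass, Hal and Hgd), against 10.8% of 32851 mouse promoters of this length. TATAAA was in 3 (Tdo2, Hal and Hgd), against 13.6%, and TGACG in 1 (Aass), against 20.8%. In Hal the TATA match began 28 bases before the start site but lies on the opposite strand (TTTATA as printed), as does that of Hgd. The C/EBP match of Aass began 22 bases before the start site. Hgd has a further C/EBP match that begins 14 bases after the start site. TGTTCT, the short core of the glucocorticoid receptor site, was in none of the 8 and in 19.0% of all promoters. The full cAMP element TGACGTCA, which contains TGACG, was in none of the 8 and in 1.79% of all, and the E-box CACGTG was in none and in 7.15%. These are matches of letters in a short window, and elements farther from the start site were not searched. The printed Prodh and Tat stretches hold no capitals, while those of Aass, Hal and Hgd hold 2 marked matches each. Of these genes Prodh, Tat and Aass were near 2-fold at 6 weeks, and Hgd varied least. Whether the matches bear on the ratios was not tested.

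At 6 weeks all 9 enzymes had a higher level on the KO array than on the WT array, by 1.07-fold to 2.13-fold, although Hgd and Uroc1 were not higher under either setting with quantile normalization. Their median log2 ratio was 0.50. Prodh, Sds, Tat and Aass stood close to 2-fold, Tdo2, Hpd and Hal between 1.33-fold and 1.42-fold, and Hgd and Uroc1 within 1.08-fold. Only Prodh, 1 of the 9, reached the 2-fold limit, while 6.49% of 21386 genes were higher by that much and 4.54% lower. Prodh too was under 2-fold with quantile normalization (log2 ratio 0.93), with normexp before it (0.88) and when set against the median of genes as bright as the members (0.92). At 3 weeks their median log2 ratio was 0.02, and the enzyme farthest from a ratio of 1 was again Prodh, which was 1.59-fold lower on the KO array. The 9 levels were all highest on the KO array at 6 weeks with scaling to the 75th percentile, but under quantile normalization this held for 5 of them, the others being Tat, Tdo2, Hgd and Uroc1, and with normexp before it for 6.

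**Figure D1:**
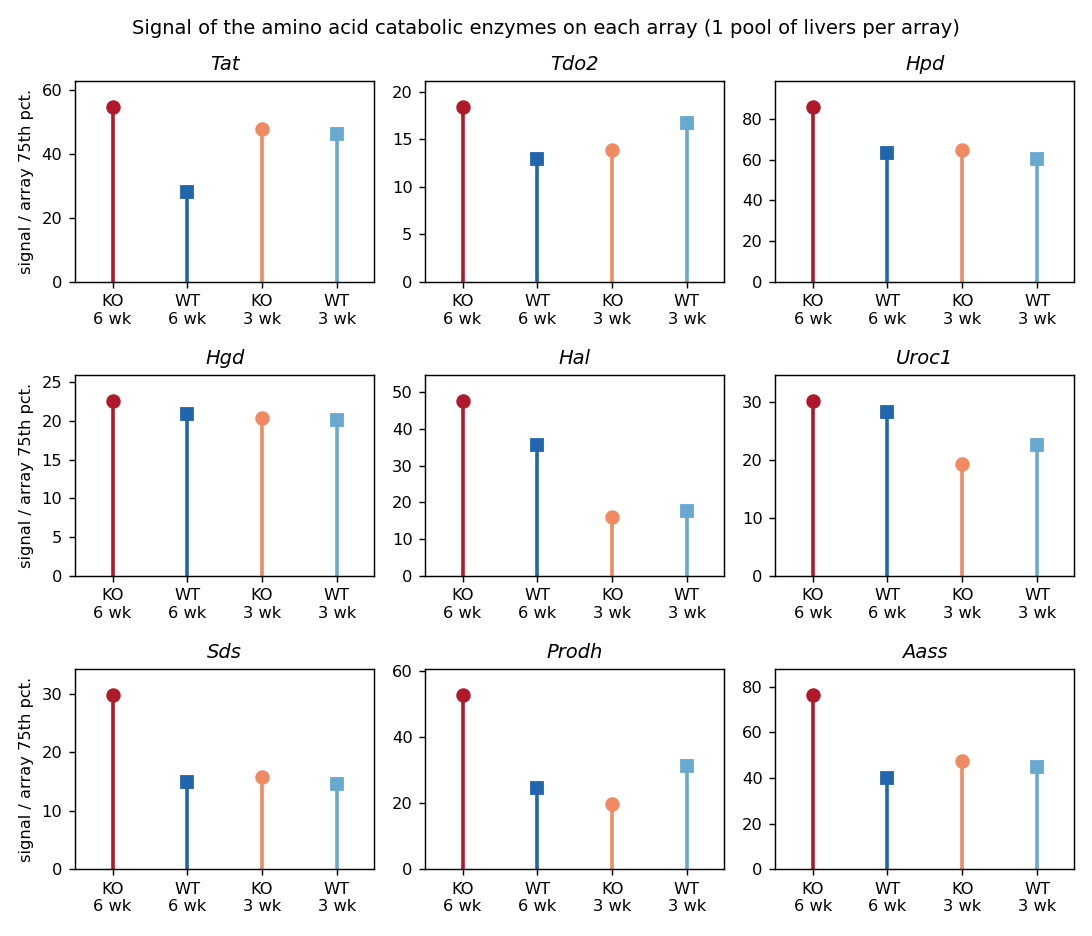
Level of each of the 9 enzymes on each of the 4 arrays, as signal divided by the array's 75th percentile (linear axes that start at 0), KO circles and WT squares, 6 weeks and then 3 weeks. Each point is 1 array of 1 pool, so there are no error bars. With this scaling the KO array at 6 weeks holds the highest point in all 9 panels, while the lowest point lies on WT at 6 weeks in 3 panels, KO at 3 weeks in 3 and WT at 3 weeks in 3.

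Among the enzymes of tyrosine breakdown, Tat was read at chr8:112523207-112523266 of mouse build mm9, the build of all probe positions here. Its level was 54.7 in KO and 28.1 in WT livers of 6 weeks, and 47.8 in KO and 46.4 in WT livers of 3 weeks. The WT array at 6 weeks was the low one, and the neighbouring levels of the other 3 did not differ by 2 spot SD. Only neighbours were compared, so the outer levels of those 3, 54.7 and 46.4, are not shown to be level. The log2 ratio of KO over WT was 0.96 at 6 weeks (1.94-fold) and 0.04 at 3 weeks, where it was smaller than the spot SD. Hpd, at chr5:123622237-123624360, had levels of 85.8 in KO and 63.2 in WT at 6 weeks, and 65.0 in KO and 60.3 in WT at 3 weeks. Here the KO array at 6 weeks was the high one, the other 3 arrays did not differ from their neighbours in the order by 2 spot SD, and the log2 ratios were 0.44 and 0.11. Hgd, at chr16:37621972-37622031, had levels of 22.6 in KO and 20.9 in WT at 6 weeks, and 20.4 in KO and 20.1 in WT at 3 weeks. No pair of neighbouring Hgd levels differed by 2 spot SD, and its log2 ratios were 0.11 at 6 weeks and 0.02 at 3 weeks. The first enzyme of this route thus had the largest ratio at 6 weeks of the 3 and the ring-opening enzyme the smallest.

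For the other 8 genes listed for aromatic amino acid breakdown the median log2 ratio of KO over WT was 0.11 in the older and -0.08 in the younger livers, with none at least 2-fold either way. Fah, which splits fumarylacetoacetate at the end of the tyrosine route, had levels of 42.4 in KO and 28.2 in WT at 6 weeks (log2 ratio 0.58), and 29.6 in KO and 31.7 in WT at 3 weeks. Pcbd1, which helps recycle tetrahydrobiopterin, had log2 ratios of -0.27 and -0.16.

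Tdo2, which commits tryptophan to the kynurenine route, was read by a probe listed at chr3:81767918-81770928. It had levels of 18.4 in KO and 13.0 in WT at 6 weeks, and 13.9 in KO and 16.7 in WT at 3 weeks. The order of KO and WT was opposite at the 2 ages, with log2 ratios of 0.50 and -0.27. The KO level at 6 weeks and the WT level at 3 weeks did not differ by 2 spot SD, nor did the KO level at 3 weeks and the WT level at 6 weeks. Of the 10 other genes of the kynurenine route, 1 was at least 2-fold higher at 6 weeks, and their median log2 ratio was -0.12. That gene was Aadat, an aminotransferase that makes kynurenic acid and also acts in lysine breakdown, at the low levels of 0.0543 in KO and 0.0252 in WT. Afmid, the formamidase that follows Tdo2, had levels of 5.53 in KO and 3.11 in WT at 6 weeks, and 2.87 in KO and 3.72 in WT at 3 weeks. Its log2 ratios of 0.83 and -0.37 had the same signs as those of Tdo2 at both ages. Kynu, which cleaves kynurenine and hydroxykynurenine, stood at -0.54 and 0.08.

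Hal, which starts histidine breakdown and is known as a gene of periportal hepatocytes, was read at chr10:92979135-92979194. Its levels were 47.7 in KO and 35.8 in WT at 6 weeks, and 15.9 in KO and 17.8 in WT at 3 weeks. Both arrays at 6 weeks were far above both arrays at 3 weeks, and within an age KO and WT lay at log2 ratios of 0.41 and -0.16. The second Hal probe, at chr10:92981534-92981593, gave 7.64 in KO and 4.21 in WT at 6 weeks, and 1.63 in KO and 2.11 in WT at 3 weeks. It ordered the 4 arrays in the same way, with larger ratios of KO over WT, 0.86 and -0.37 on the log2 scale. Uroc1, at chr6:90314337-90314396, had levels of 30.2 in KO and 28.3 in WT at 6 weeks, and 19.3 in KO and 22.7 in WT at 3 weeks. Its KO and WT levels did not differ by 2 spot SD at 6 weeks (log2 ratio 0.10), and at 3 weeks the KO level was lower by 0.24 on the log2 scale.

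The 5 other genes of histidine breakdown held none at least 2-fold different between KO and WT at either age, with medians of -0.11 at 6 weeks and 0.01 at 3 weeks. Ftcd, which hands the one-carbon unit from histidine to folate, had levels of 73.5 in KO and 51.5 in WT at 6 weeks, and 36.8 in KO and 36.4 in WT at 3 weeks. Amdhd1, the imidazolonepropionase after Uroc1, had 12.0 in KO and 11.8 in WT at 6 weeks, and 5.55 in KO and 5.46 in WT at 3 weeks. The 4 enzymes in the order of the route, Hal, Uroc1, Amdhd1 and Ftcd, thus had log2 ratios of KO over WT at 6 weeks of 0.41, 0.10, 0.03 and 0.51. The dim genes Carns1 and Hdc, whose products make carnosine and histamine from histidine, stood at -0.71 and -0.49 at 6 weeks.

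Sds, which feeds serine carbon into gluconeogenesis as pyruvate, was read at chr5:120933105-120933164. Its level was 29.8 in KO and 15.0 in WT at 6 weeks, and 15.8 in KO and 14.6 in WT at 3 weeks. The KO array at 6 weeks stood alone, 1.99-fold above the WT array of that age (log2 ratio 0.99), and the other 3 arrays did not differ from their neighbours by 2 spot SD. The second Sds probe, at chr5:120928999-120929058, was much dimmer, with 0.447 in KO and 0.172 in WT at 6 weeks, and 0.153 in KO and 0.136 in WT at 3 weeks. On that probe too the KO array at 6 weeks was the highest, the log2 ratios of KO over WT being 1.38 in the older and 0.16 in the younger livers. The other 3 arrays were less level there, with WT at 6 weeks above WT at 3 weeks by a log2 ratio of 0.34. The mean of both Sds probes placed the gene past 2-fold at 6 weeks, at a log2 ratio of 1.19.

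None of the 12 other genes of serine, glycine and threonine breakdown was at least 2-fold different at either age, and their medians were 0.20 at 6 weeks and -0.06 at 3 weeks. Sdsl, a relative of Sds in sequence, had levels of 10.7 in KO and 6.64 in WT at 6 weeks, and 8.03 in KO and 7.81 in WT at 3 weeks (log2 ratios 0.69 and 0.04). Agxt2, a mitochondrial aminotransferase, had 27.6 in KO and 15.5 in WT at 6 weeks, a log2 ratio of 0.83, and 0.11 at 3 weeks. Shmt2, which splits serine into glycine and a one-carbon unit in mitochondria, stood at 0.40 and -0.09.

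Prodh, the proline dehydrogenase, was read at chr16:18071891-18071950. Its level was 52.9 in KO and 24.8 in WT at 6 weeks, and 19.7 in KO and 31.4 in WT at 3 weeks. Of its 4 levels, KO at 6 weeks was the highest and KO at 3 weeks the lowest, with both WT arrays between, and every neighbouring pair differed by over 2 spot SD. The log2 ratio of KO over WT was 1.09 in the older livers (2.13-fold), at percentile 94.3 of all genes, and -0.67 at 3 weeks (1.59-fold lower), at percentile 4.67. Of the 9 enzymes it had the most unlike ratios at the 2 ages. Prodh2, which acts on hydroxyproline, had log2 ratios of the same signs but smaller, 0.31 and -0.21, from levels of 24.5 in KO and 19.8 in WT at 6 weeks and 20.6 in KO and 23.8 in WT at 3 weeks. Aldh4a1, which completes the oxidation of proline to glutamate, stood at 0.20 and -0.17.

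Of the 7 other genes of proline and ornithine breakdown, 1 was at least 2-fold higher at 6 weeks and none at 3 weeks, with medians of 0.24 and -0.04. It was Oat, the ornithine aminotransferase, which is known for its confinement to hepatocytes around the central vein. Oat had levels of 33.8 in KO and 12.5 in WT at 6 weeks, and 11.2 in KO and 10.1 in WT at 3 weeks, with log2 ratios of 1.43 and 0.15. It was highest on the KO array at 6 weeks, and in WT it was higher at 6 weeks than at 3 weeks by a log2 ratio of 0.31. Hoga1, the aldolase at the end of hydroxyproline breakdown, had 11.4 in KO and 6.51 in WT at 6 weeks, and 5.40 in KO and 5.74 in WT at 3 weeks.

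Aass, the enzyme that joins lysine to oxoglutarate and splits the product saccharopine, was read at chr6:23022668-23022727. Its level was 76.4 in KO and 40.0 in WT at 6 weeks, and 47.6 in KO and 44.6 in WT at 3 weeks. The KO array at 6 weeks was again the high one, 1.91-fold above the WT array (log2 ratio 0.93). Neighbouring levels among the other 3 did not differ by 2 spot SD. Only neighbours were compared, so the outer levels of those 3, 47.6 and 40.0, are not shown to be level. At 3 weeks the log2 ratio was 0.09. Among the 7 other genes of lysine breakdown, 1 was at least 2-fold higher at each age, but it was Dhtkd1 at 6 weeks and Hykk at 3 weeks. Dhtkd1, a subunit of the dehydrogenase of oxoadipate, had levels of 2.20 in KO and 0.769 in WT at 6 weeks, and 0.762 in KO and 0.722 in WT at 3 weeks, with log2 ratios of 1.52 and 0.08. Phykpl, which acts on phosphohydroxylysine, stood at 0.74 and 0.03, and Pipox, the pipecolate oxidase, at 0.53 and -0.11. The list's median was 0.33 at 6 weeks and 0.03 at 3 weeks, while Aldh7a1, which acts after Aass, was level at -0.01 and 0.05.

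The whole KO array at 6 weeks has to be read beside these ratios, because its bright genes as a group lay above those of the other arrays. Among 1831 genes as bright as the members, with a mean level of at least 15.4, the median log2 ratio at 6 weeks was 0.17 and 76.0% were above 0, while over all 21386 genes the median was 0.05. Of these bright genes 3.5% were higher by 2-fold or more and 1.53% lower, against 1 of the 9 enzymes. Set against the bright median, the log2 ratios at 6 weeks were 0.92 for Prodh, 0.82 for Sds, 0.78 for Tat and 0.76 for Aass, so none of the 9 remained past 2-fold. Tdo2, Hpd and Hal then stood at 0.33, 0.27 and 0.24. Hgd at -0.06 and Uroc1 at -0.08 were below 0, as they were under quantile normalization of the signals. The KO array at 6 weeks held the highest of the 4 levels for 64.0% of the bright genes and for 39.1% of the 18871 genes above background on all arrays, against all 9 of the enzymes. In 5 of the 9 (Hpd, Hal, Sds, Prodh and Aass) that highest level exceeded the next one by over 2 spot SD.

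**Figure D2:**
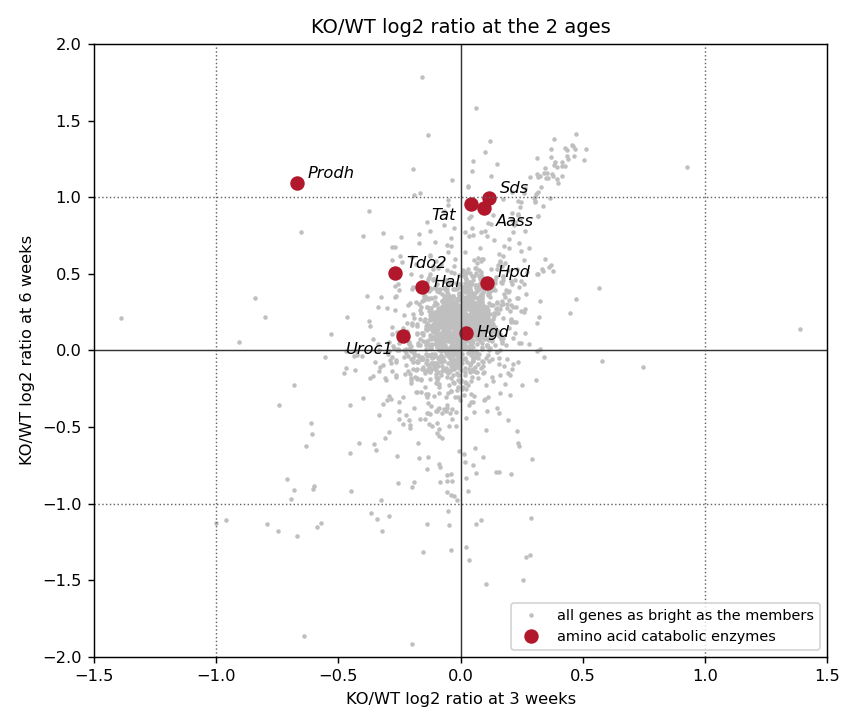
Log2 ratio of KO over WT at 3 weeks (horizontal axis) and at 6 weeks (vertical axis) for the 9 enzymes, in red with names, and for all 1831 genes as bright as they are, in grey, of which 15 lie outside the axes. Dotted lines mark 2-fold. Prodh lies at the upper left, at 1.09 and -0.67, Sds, Tat and Aass lie just below the upper dotted line near 0 on the horizontal axis, and Hgd and Uroc1 lie within the grey cloud.

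At 3 weeks none of the 9 enzymes was at least 2-fold higher or lower in KO, and 2.86% of 21758 genes were higher and 2.9% lower by that measure. Among the genes as bright as they are these shares were 0.546% and 0.164%. Tat, Hpd, Hgd, Sds and Aass had log2 ratios between 0.02 and 0.12, and Tdo2, Hal, Uroc1 and Prodh between -0.67 and -0.16. Hgd, at 0.02, was at -0.01 with median scaling. The bright genes had a median of -0.00, so the comparison at 3 weeks carried no shift of the kind seen at 6 weeks. Prodh was the enzyme farthest from 1 at this age, followed by Tdo2 at -0.27 and Uroc1 at -0.24.

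The difference between the ages is the log2 ratio at 6 weeks minus that at 3 weeks. It was above 0 for all 9 enzymes, except that Hgd was below 0 with quantile normalization. It was also above 0 for 57.0% of all 18871 genes compared and for 79.2% of the 1831 genes as bright as the members. The median difference of the 9 enzymes was 0.77. It was 1.76 for Prodh, 0.92 for Tat, 0.88 for Sds, 0.84 for Aass, 0.77 for Tdo2, 0.57 for Hal, 0.33 for Hpd and Uroc1 and 0.09 for Hgd. None reached the 4-fold limit used for this difference, which 0.837% of 18871 genes passed upward and 0.684% downward, or 0.218% and 0.164% of the bright genes. Prodh lay at percentile 98.9 of all these genes. The bright genes had a median difference of 0.18, and less that shift Hgd was at -0.09 and the other 8 stayed above 0. The difference was not tested, since each of its 4 terms is 1 array.

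Between 3 and 6 weeks the same levels can be compared within a genotype. These comparisons share arrays with those above and are not independent of them. In KO livers 2 of the 9 enzymes, Hal and Prodh, were at least 2-fold higher at 6 weeks than at 3 weeks, and 6.02% of 21971 genes were that much higher and 6.26% lower, or 2.89% and 1.2% of the bright genes. Hal stood at a log2 ratio of 1.58 (2.99-fold), Prodh at 1.43, Sds at 0.92, Aass at 0.68 and Uroc1 at 0.65, with Tdo2 and Hpd at 0.40, Tat at 0.19 and Hgd at 0.14. The bright genes had a median of 0.20 in this comparison, and with quantile normalization Tat stood at -0.02 and Hgd below 0 too. In WT livers 1 of the 9, Hal, was at least 2-fold higher, at 1.01, where 3.64% of 21169 genes were higher and 5.85% lower, or 2.29% and 0.819% of the bright genes. Uroc1 followed at 0.32, and Hpd, Hgd and Sds lay between 0.04 and 0.07. Tat at -0.72, Tdo2 at -0.37, Prodh at -0.34 and Aass at -0.16 were lower at 6 weeks than at 3 weeks in WT.

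Of the 9 enzymes Hal was the one at least 2-fold higher at 6 weeks than at 3 weeks in both genotypes. It lay at percentile 97.3 of all genes in KO and 96.4 in WT, and its second probe gave log2 ratios of 2.23 and 0.997. Amdhd1 stood at 1.11 in both genotypes, and Ftcd at 0.999 in KO and 0.50 in WT. With quantile normalization Hal in WT was under 2-fold.

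**Figure D3:**
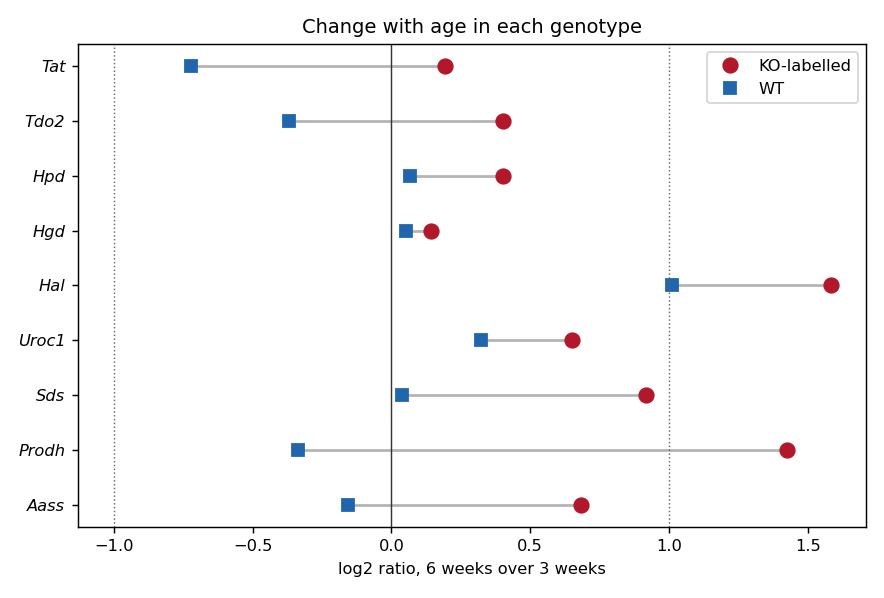
Log2 ratio of the level at 6 weeks over that at 3 weeks for each enzyme, in KO-labelled livers (red circles) and WT livers (blue squares), each from 1 array over 1 array, with the grey bar as their difference. Dotted lines mark 2-fold. With scaling to the 75th percentile the KO circle lies right of the WT square for all 9 (for 8, without Hgd, after quantile normalization). The same order held for 57.0% of the 18871 genes above background on all arrays and for 79.2% of those as bright as the members. The bar is longest for Prodh and shortest for Hgd, and both symbols lie right of the dotted line for Hal alone.

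The 84 other genes listed for amino acid breakdown and transport give the wider setting of the 9. At 6 weeks 7 of the 84 (8.33%) were higher in KO by 2-fold or more and 0 lower by as much, with a median log2 ratio of 0.21 and 58 above 0, where 6.49% of all 21386 genes were higher and 4.54% lower. Besides Aadat, Oat and Dhtkd1 these were Gpt, Gpt2, Got1 and Slc43a1. Gpt and Gpt2, the alanine aminotransferases of cytosol and mitochondria, had levels of 64.4 and 18.0 in KO against 31.9 and 7.87 in WT at 6 weeks, with log2 ratios of 1.01 and 1.20. Got1, the cytosolic aspartate aminotransferase, had 65.7 in KO and 28.3 in WT, a log2 ratio of 1.22. These 3 aminotransferases stood between -0.19 and 0.15 at 3 weeks.

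Slc43a1, a carrier of large neutral amino acids, had the highest ratio of the 84 at 6 weeks, 2.11, from levels of 1.46 in KO and 0.338 in WT. At 3 weeks it had 1.03 in KO and 0.982 in WT, so the WT array at 6 weeks was the low one, as for Tat. Slc7a2, which carries cationic amino acids such as lysine and ornithine, stood at 0.997 and 0.70, and Slc16a10, which carries aromatic amino acids, at 0.67 and 0.19. The 18 genes of branched-chain breakdown, which begins mostly outside the liver, had a median of 0.23 at 6 weeks with none past 2-fold. Among these Ivd and Bcat2 stood at 0.66 and 0.63 and Pccb at -0.96. At 3 weeks 1 of the 84 was at least 2-fold higher (Hykk), 1 at least 2-fold lower (Asrgl1, a dim asparaginase), and the median was -0.04.

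**Figure D4:**
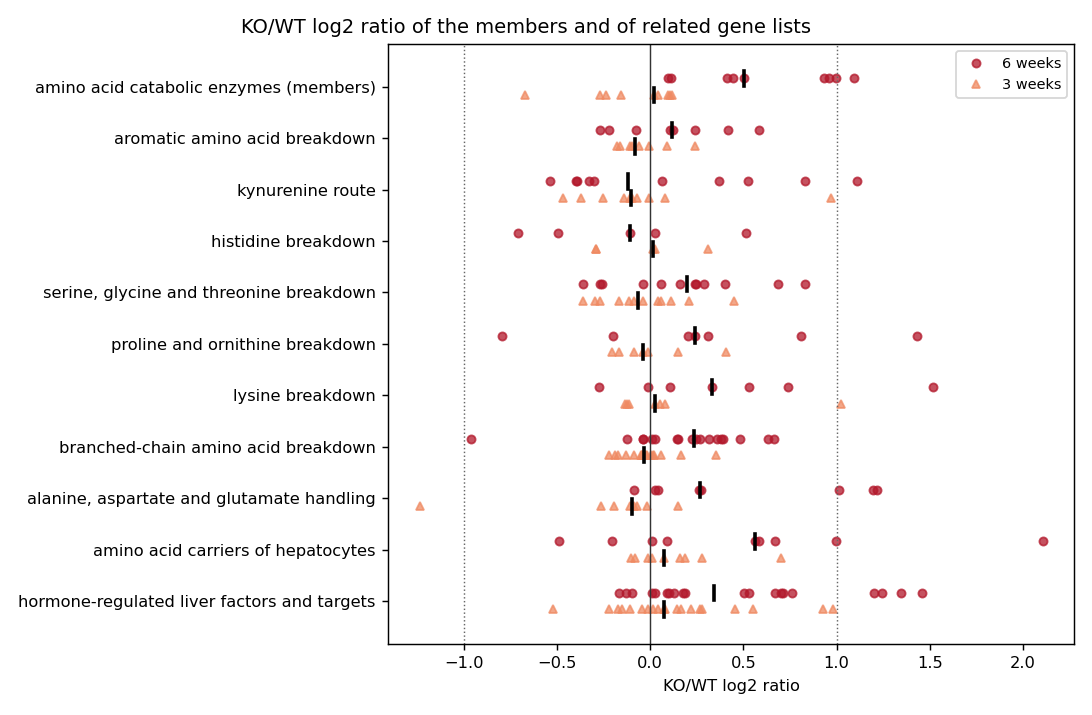
Log2 ratio of KO over WT for the 9 enzymes (top row) and for the genes of each related list, with circles for 6 weeks, triangles for 3 weeks and a black bar at each median. Each symbol is 1 gene on 1 pair of arrays, and dotted lines mark 2-fold. The bar of the 9 enzymes lies at 0.50 at 6 weeks and 0.02 at 3 weeks, and the bars of the other lists lie between -0.12 and 0.56 at 6 weeks and between -0.10 and 0.08 at 3 weeks.

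A fit of age and genotype over the 4 arrays with limma is the only test the design allows, and it has 1 residual degree of freedom. It called 0 of 22648 genes (0%) at an adjusted p under 0.05, the smallest adjusted p being 0.468. In limma 1007 genes (4.45%) had an unadjusted p under 0.05. None of the 9 enzymes was among these, and at that share 0 of 9 does not set them apart from other genes. The lowest p of the 9 was that of Sds, 0.190, with a log2 ratio over both ages of 0.56 ± 0.31 (SE) and a Benjamini-Hochberg adjusted p of 0.914 in limma. Aass stood at 0.51 ± 0.30, Tat at 0.50 ± 0.32 and Prodh at 0.21 ± 0.57, with adjusted p between 0.914 and 0.954 in limma for all 9. Letting the prior of the variance follow the mean signal in limma gave 4 calls, none of them among the 9. The spread in this fit is the disagreement between the ages, so an enzyme that differs at 6 weeks alone has a wide error.

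RNA of some other cells differed between the arrays, and in pooled tissue fewer cells of a type and less RNA per cell cannot be told apart. All 14 skeletal muscle markers were at least 2-fold higher in KO at both ages, and their summed level was 40.9 in KO and 1.05 in WT at 6 weeks, and 63.4 in KO and 0.384 in WT at 3 weeks. All 8 Kupffer cell markers were lower in KO at 6 weeks, 2 of them by at least 2-fold, with sums of 30.6 in KO and 54.3 in WT, and 58.3 in KO and 65.3 in WT at 3 weeks. Of the 5 exocrine pancreas markers, all dim, 3 were at least 2-fold higher in KO at 6 weeks, among them Cpa1 by a log2 ratio of at least 3.11, and none of the 3 that could be compared at 3 weeks. Their sums were 0.75 in KO and 0.546 in WT at 6 weeks, and 0.458 in KO and 0.538 in WT at 3 weeks. The 5 erythroid markers differed with age, since 3 in KO and 5 in WT were at least 2-fold lower at 6 weeks than at 3 weeks. Their sums were 1.22 in KO and 1.39 in WT at 6 weeks, and 5.07 in KO and 5.65 in WT at 3 weeks. Other lists differed less in sum at 6 weeks, with 49.9 in KO and 50.1 in WT for stellate cells and 39.9 and 49.1 for sinusoidal endothelium. Most of the stellate sum was Dcn, at 46.2 in KO and 44.6 in WT, so near-equal sums do not mean level markers. Only 2 of the 7 stellate markers had a log2 ratio above 0, with a median of -0.32 and Des the highest at 2.35. For endothelium 2 of 7 were above 0, with a median of -0.21. Cholangiocyte markers summed to 0.680 in KO and 0.778 in WT, and adipocyte markers to 0.508 and 0.595. The part of any of these cells in the ratios of the enzymes was not tested.

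The 11 hepatocyte markers summed to 2215 in KO and 1979 in WT at 6 weeks, and 1902 in KO and 1941 in WT at 3 weeks, with a median log2 ratio of 0.18 at 6 weeks. The 10 periportal markers summed to 578 in KO and 470 in WT at 6 weeks, and 415 in KO and 442 in WT at 3 weeks. At 6 weeks 1 of them, Asl of the urea cycle, was at least 2-fold higher (log2 ratio 1.18) and 1, the protease gene Ctsc, at least 2-fold lower (-1.24), with a median of 0.14. The 10 pericentral markers summed to 486 in KO and 327 in WT at 6 weeks, and of the 9 that could be compared 3 were at least 2-fold higher, one of them Oat, with a median log2 ratio of 0.51. At 3 weeks the pericentral sum was 390 in KO and 352 in WT. Whether a shift between zones bears on the enzymes was not tested.

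Likeness of pattern was measured as the root mean square distance between 2 genes' log2 levels over the 4 arrays, each centred on its own mean. Within the 9, Sds and Aass were closest, at 0.109, and of 14172 genes searched 61 were at least as close to Sds as Aass was. Tat was closest to Tdo2 at 0.240 and Prodh to Sds at 0.282, with 802 and 217 genes at least as close, while Hal was 0.421 from its nearest member, Uroc1. Outside the 9, the genes nearest to Sds were Lhpp (0.0291), Itga7 (0.0380) and Flvcr2 (0.0435). Lhpp, a phosphatase, had levels of 23.3 in KO and 12.0 in WT at 6 weeks, and 13.0 in KO and 11.9 in WT at 3 weeks. Nearest to Hal were Trpm1, Pigr and Eepd1, of which Pigr, the receptor that carries IgA into bile, was bright, with 32.1 in KO and 26.5 in WT at 6 weeks, and 12.0 in KO and 13.1 in WT at 3 weeks. Those nearest to Prodh, Olfr251, AU015836 and Vmn2r4, had levels of 0.211 or below. With 4 arrays and 14172 genes, close profiles are many, and these distances are a description.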

How the data were processed

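Liver RNA of 4 groups was measured on 1 one-colour (Cy3) Agilent array per group, each with a pool of 5 livers. The intensity values deposited by the authors come, per the submitters' processing notes, from Agilent Feature Extraction 11.5.1.1 and were background-subtracted and detrended but not scaled between arrays, per the file headers. Spot flags (outlier, saturation, signal well above background) were deposited as other values of 0 or 1, per the file headers. The value table of the authors equals that intensity divided by the array's 75th percentile, with column medians of 0.0864 (KO, 6 weeks), 0.0853 (WT, 6 weeks), 0.0896 (KO, 3 weeks) and 0.0878 (WT, 3 weeks). The files give probe positions in mouse build mm9.

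From there, log2 of the processed intensity minus log2 of the array's 75th percentile was taken. Outlier spots (189 to 252 per array) were left out, none was saturated, and spots of a probe were averaged. Of 39429 probes, 27508 were named by accession, 3544 by symbol and 404 by synonym through RefSeq, while 7973 keep the name in the file. The brightest probe stood for a gene, and 174 probes lacking a value on some array were dropped. Comparisons took genes well above background on at least 1 of their arrays, a dim array being raised to its lowest signal well above background, and on all 4 arrays for the difference between ages. Tools were limma 3.58.1 in R 4.3.3, Python 3.11.15, numpy 2.4.6, pandas 2.3.3 and matplotlib 3.10.9. The 2-fold count of KO over WT and the limma fit were tested on simulated data. The members, gene lists and thresholds were chosen with earlier results of these data known. Besides the members and their partner enzymes, genes named are the 3 of each list with the largest ratio at 6 weeks, and the 3 most like each member whose level spans over 1 log2 unit; other list genes were named after their values were seen. A gene that this rule takes is not reported here.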

Additional observations from a re-analysis of the deposited data

Results flagged for a closer look

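For 2 of the 9 enzymes the KO and WT arrays differed in opposite directions at the 2 ages by more than 2 SD of the spread between repeated spots. The KO/WT log2 ratio of Prodh was 1.09 in livers of 6 weeks and -0.67 in livers of 3 weeks, and that of Tdo2 was 0.50 and -0.27. These are the values of the brightest probe of each gene. With the mean of its 2 probes Hal also lay past 2 SD in opposite directions, at 0.64 and -0.26, as did its second probe alone, at 0.86 and -0.37, and its brightest probe with median scaling, at 0.39 and -0.19. Each ratio comes from 1 array over 1 array, and the difference between the ages was not tested for any of these genes. No group has enough arrays for a check of single arrays against their group.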

How the results depend on the processing

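Of 165 counts and medians recomputed under the alternatives, 139 kept their value within the limits used and 26 moved. A change of sign was scored only for a median past the fold limit, which no median reached. The median of the enzymes at 3 weeks, 0.02, was -0.008 with median scaling. Of 472 further values 95 moved and 377 did not. Most are values of single enzymes, judged by the spot SD or, for limma, by the side of its threshold. Also among them are the counts of all genes past 4-fold between ages, 158 higher and 129 lower. Each of these counts had 11 alternatives, of which 4 moved it. Many enzyme values could not move, since the background filters leave genes well above background on all 4 arrays unchanged. The mean of all probes can change Hal and Sds alone, and a limma value moves only if called. At 6 weeks the number of enzymes at least 2-fold higher in KO, 1 with the settings used, was 0 with quantile normalization, with normexp and quantile normalization, at 3-fold and with centring on genes as bright as the members, 2 with the mean of all probes (Sds joins Prodh) and 4 at 1.5-fold. The median log2 ratio of the 9, 0.50, was 0.36 with normexp and quantile normalization, 0.64 with the mean of all probes and 0.33 with centring. At 3 weeks 1 enzyme was lower at 1.5-fold. For 6 over 3 weeks in KO the median of 0.65 was 0.36 with normexp and quantile normalization, 0.46 with quantile normalization and 0.45 with centring, and 5 enzymes were higher at 1.5-fold and 0 at 3-fold. In WT, 0 were higher with either quantile setting, at 3-fold or with centring, 1 was lower at 1.5-fold, and the median of 0.04 was -0.059 with normexp and quantile normalization and -0.050 with quantile normalization alone. The median difference between ages, 0.77, was 0.55 with normexp and quantile normalization and 0.60 with centring, and 1 enzyme (Prodh) passed at the lower threshold. limma with a trend in the variance prior called 4 genes, where the fit used called 0. The centring was chosen after the data were seen. It moved the share of higher genes among all those past 2-fold at 6 weeks to 44.9%, against 58.9%, in KO with age to 34.1%, against 49.0%, and past 4-fold between ages to 42.8%, against 55.1%. Over all alternatives, fold thresholds included, 549 to 2658 genes were higher in KO and 410 to 2228 lower at 6 weeks, and 232 to 1304 and 179 to 1212 at 3 weeks. With age, 583 to 2926 genes were higher and 674 to 2861 lower in KO, and 348 to 1734 and 494 to 2277 in WT, while 37 to 1188 and 36 to 858 passed between ages. The cause of these shifts was not tested. Leaving out an array ends its comparison, and no paired analysis was possible because each group has 1 array. The number of arrays, 1 per group, limits the precision of every value.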

Other observations

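Hormone-regulated genes of the liver were described beside the enzymes, since Tat, Tdo2 and Sds are known targets of glucocorticoids and glucagon. Of 20 such factors and targets, 4 were at least 2-fold higher in KO at 6 weeks and none lower, with a median log2 ratio of 0.34, and none was past 2-fold at 3 weeks, with a median of 0.08. Over all genes 6.49% were higher and 4.54% lower by 2-fold or more at 6 weeks, and 2.86% and 2.9% at 3 weeks. Fkbp5, which encodes a co-chaperone of the glucocorticoid receptor, had levels of 10.6 in KO and 3.86 in WT at 6 weeks, and 7.56 in KO and 7.35 in WT at 3 weeks. Per1, a clock gene that glucocorticoids also induce, had 9.51 in KO and 3.74 in WT at 6 weeks, and 7.12 in KO and 6.45 in WT at 3 weeks. As with Tat, the WT array at 6 weeks was the lowest of the 4 for both. Ppargc1a, a coactivator of gluconeogenic genes, and Igfbp1, a secreted binding protein of insulin-like growth factors, were the other two, with log2 ratios of 1.25 and 1.20 at 6 weeks and of 0.98 and 0.93 at 3 weeks. Nr3c1, the glucocorticoid receptor itself, stood at 0.13 and -0.15.

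Tsc22d3, a glucocorticoid-induced leucine zipper protein, had levels of 17.2 in KO and 10.5 in WT at 6 weeks, and 17.2 in KO and 19.4 in WT at 3 weeks. Klf15, a factor known to govern amino acid breakdown genes in liver, had 9.10 in KO and 5.56 in WT at 6 weeks, and 6.58 in KO and 5.86 in WT at 3 weeks. Both had a ratio under 2-fold at both ages, 0.70 and -0.17 for Tsc22d3 and 0.71 and 0.17 for Klf15 on the log2 scale. Of the other glucocorticoid targets listed, Sgk1, a kinase, had a larger ratio at 3 weeks, with log2 ratios of 0.18 at 6 and 0.45 at 3 weeks, and Dusp1, a phosphatase, was lower in KO, at -0.13 and -0.52. The sources used here do not give the hour of collection, and its part in these values was not tested.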
